A study of Mus musculus with 10 samples.

Results

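The chaperone and heat shock genes of MLL-AF9 leukaemia cells were compared with those of myeloid cells from the same kind of leukaemic bone marrow. Members were chosen by name: genes whose symbol begins with Hsp (without Hspg and Hspbap), Dnaj, Cct and a digit, Fkbp or Pfdn, with Tcp1, Hsf1, Hsf2, Stip1, Ahsa1, Bag1, Bag3, Calr, Canx, Pdia3, Pdia4 and Pdia6. Of the 10141 genes in the authors' table, 82 met the rule, and 71 of these passed a filter on low values. RefSeq lists 114 protein-coding mouse genes that meet it, and the 32 without an entry, among them Cct6a, Dnaja1, Dnaja2, Hspb1, Bag3 and Hsf2, are not analysed here.

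GFP+ leukaemia cells carrying MLL-AF9, a fusion oncogene that drives acute leukaemia, were set against GFP- CD11b+ myeloid cells of the marrow micro-environment, with 5 RNA-seq libraries in each group. MLL-AF9/GFP cells had been given by tail vein to CD45.1 mice, and marrow was taken once GFP+ cells made up 2% of peripheral blood, so both groups came from mice with leukaemia. All 10 libraries are labelled as acute myeloid leukaemia cells of genotype MLL-AF9/GFP, and the groups were therefore taken from the sample titles. The labels give no age or sex and name 1 sort for the myeloid cells in the protocol (flow cytometry) and another in the design text (magnetic selection). Nothing in them states that the 5 libraries of a group are 5 animals, so p-values rest on differences among libraries that may be technical.

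The table held 24099545 to 30879715 recovered reads per leukaemia library and 24712807 to 32247774 per myeloid library. Itgam, which encodes the CD11b of the myeloid gate, averaged 12227 ± 1128 normalised reads in leukaemia, against 97794 ± 13873 in myeloid cells, and Hoxa9, a homeobox gene switched on by MLL fusions, averaged 3215 ± 329 in leukaemia, against 16 ± 5.3 in myeloid cells (± SD over 5 libraries). Normalised reads are reads divided by the authors' size factor. Among the myeloid libraries, replicates 2 and 4 stood apart: on the first principal component, which held 64.6% of the spread, they lay at 14.8 and 14.5, against -13.8 to -6.81 for the other 3. Mature neutrophil genes summed to 47612 to 52382 normalised reads in leukaemia libraries, against 2150659 to 3474722 in myeloid ones, and promyelocyte genes to 236521 to 298349 in leukaemia, against 22707 to 51521 in myeloid libraries. Myeloid replicates 2 and 4 had 5715 and 5807 summed normalised reads of MHC class II and dendritic genes, against 39205 to 60788 in the other 3 myeloid libraries. The same 2 libraries held the highest myeloid sums of mature neutrophil genes (3474722 and 2877686) and of promyelocyte genes (51521 and 33551). In bulk samples, fewer cells of a type and less RNA per cell cannot be told apart, and since no normal immature cells were analysed, leukaemia and stage of maturation cannot be told apart either.

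Chaperones help proteins to fold and keep unfolded ones from clumping. HSP70 proteins bind short stretches of unfolded chain with the help of J proteins, which hand over clients and start ATP hydrolysis, and of exchange factors, which release them. HSP90 finishes the folding of kinases, receptors and transcription factors, the chamber TRiC folds actin and tubulin, and separate sets serve mitochondria and the endoplasmic reticulum (ER). The transcription factor HSF1 raises the cytosolic set under heat and other stress, and the unfolded protein response raises the ER set.

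As a group, the chaperones lay higher in leukaemia cells. Of 71 tested members, 52 were called higher and 18 lower (limma, Benjamini-Hochberg adjusted p below 0.05 over all 8079 tested genes), and Hspa1b was not called. Over all tested genes, 49.1% were called higher and 50.7% lower, and 99.8% were called one way or the other, in a table whose rows appear to have been selected for a difference, so a call by itself says little. The median log2 difference (leukaemia minus myeloid mean of the deposited variance-stabilised values) was 0.53 for the tested members and -0.16 for all tested genes. A difference of at least 1 was found upward for 15 members (21.1%, against 9.52% of all tested genes) and downward for 1 member (1.41%, against 18.1%). The groups did not overlap for 49 members higher and 13 lower in leukaemia, against 42.4% and 44.3% of all tested genes. In both directions together that is 87.3% of members and 86.8% of all tested genes, a share near the background. Without replicates 2 and 4 of both groups, 51 members were called higher and 15 lower, and without these 2 libraries of the myeloid group alone, 52 and 16. Summed over all 82 entries, members had 454816 ± 20977 normalised reads in leukaemia, against 249487 ± 15400 in myeloid cells, 1.82-fold more (± SD over 5 libraries).

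**Figure D1:**
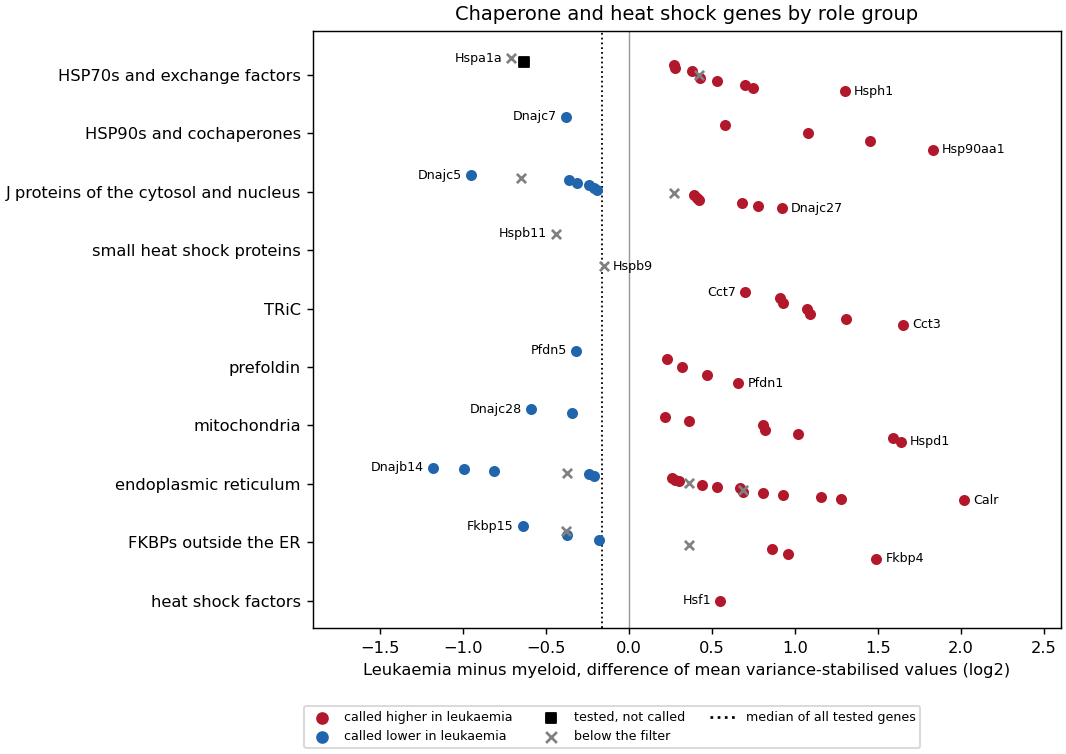
Log2 difference (leukaemia minus myeloid) of every chaperone entry, 1 point per gene, by role group, with the lowest and highest member named. The dotted line marks the median of all tested genes (-0.16). All 7 TRiC subunits lie to the right of 0, and the cytosolic and nuclear J proteins lie on both sides.

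Directions depended in part on scaling. When libraries were set to equal summed reads (voom), all tested genes had a median of 0.43, while the authors' size factors gave -0.21 in the same kind of fit. Relative to that median, the members stood 0.91 higher under the first scaling and 0.92 under the second, and 0.55 higher after quantile normalisation. Counts were 59 higher and 4 lower at equal summed reads, and 51 higher and 12 lower after quantile normalisation. Of the genes called, 67.4% were higher at equal summed reads and 49.2% with the deposited values, and of the members called, 93.7% and 74.3%. The 9 members whose direction turned round are given with both values where they are described.

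**Figure D2:**
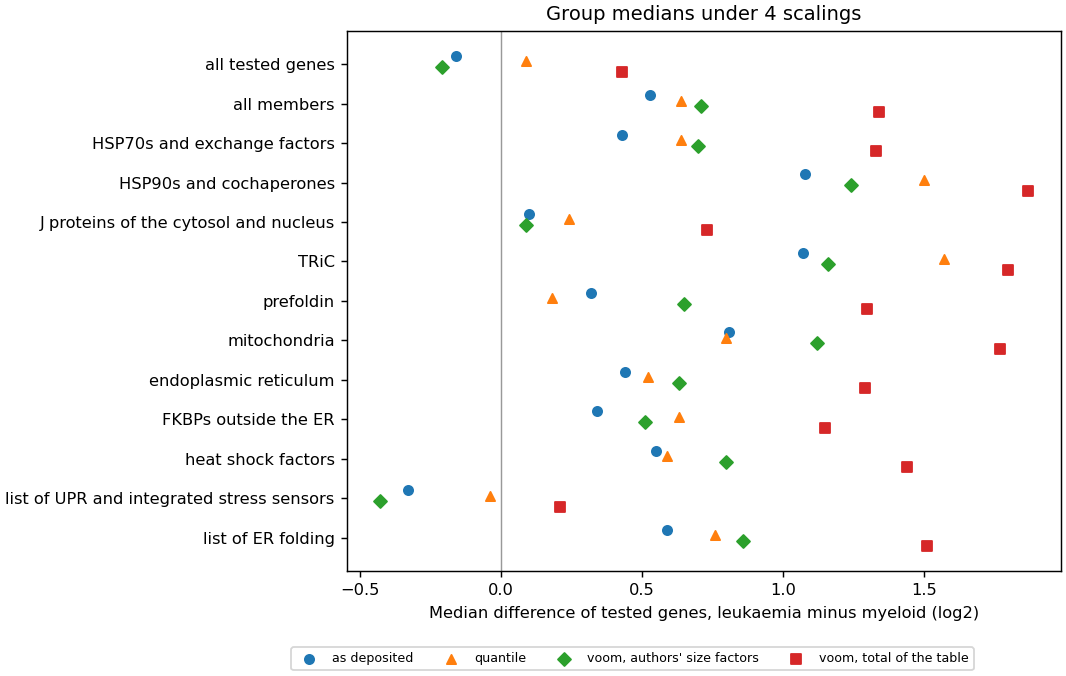
Median log2 difference (leukaemia minus myeloid) of the tested genes of each group under 4 scalings. Equal summed reads place all tested genes at 0.43, the authors' size factors at -0.21, and every role group lies to the right of all tested genes under each of the 4 scalings.

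The HSP90 set had the highest group median, 1.08 over 5 tested members, with 4 higher and 1 lower. Hsp90aa1, the stress-responsive cytosolic HSP90, had 28554, 24758, 28657, 24372 and 25583 normalised reads in leukaemia libraries 1 to 5, against 5588, 8284, 7648, 6924 and 6870 in myeloid libraries 1 to 5. Every leukaemia library lay above every myeloid one, 3.74-fold on the means (log2 difference 1.83, SE 0.096, adjusted p = 1.15e-09). Hsp90ab1, the constitutive form and in leukaemia the most abundant member per exon length, had 58657, 61693, 63399, 58134 and 61348 normalised reads in leukaemia, against 21725, 24622, 20443, 22550 and 19981 in myeloid cells. The groups were again apart, 2.77-fold (log2 difference 1.45, SE 0.0759, adjusted p = 1.11e-09). The ratio of Hsp90aa1 to Hsp90ab1 within a library was 0.435 ± 0.0342 in leukaemia, against 0.324 ± 0.0442 in myeloid cells, and no library of one group reached the other (± SD over 5 libraries, exact two-sided permutation test, p = 0.00794, the smallest 252 assignments can give, adjusted p = 0.0111 over 7 ratios). A factor per library cancels in such a ratio, but quantile normalisation does not, and after it the log2 differences were 2.43 for Hsp90aa1 and 2.40 for Hsp90ab1. This pair was chosen with earlier results of these data known, so the p-value adds no support.

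Stip1 (HOP), which bridges HSP70 and HSP90, averaged 5676 ± 610 normalised reads in leukaemia, against 2415 ± 357 in myeloid cells, 2.35-fold higher. Ahsa1, which stimulates the HSP90 ATPase, was 1.59-fold higher (4521 ± 358 in leukaemia, against 2849 ± 327 in myeloid cells). Dnajc7, a J protein with repeats that bind both HSP70 and HSP90, was the lower member, with 3002, 3046, 3333, 3017 and 3188 normalised reads in leukaemia, against 4774, 3899, 4479, 3745 and 4260 in myeloid cells. The groups were apart (log2 difference -0.38, SE 0.0663, adjusted p = 0.000112), but its value turned to 0.07 after quantile normalisation and 0.20 at equal summed reads, without passing in either. Of 20 other tested cochaperone genes outside the name rule, 15 were higher and 5 lower (median 0.52). Nudc, an HSP90 partner in nuclear movement and dynein function, was 2.81-fold and Ppid, the cyclophilin that binds HSP90, 2.65-fold higher, while Sugt1 was 1.45-fold and Hsbp1, which binds HSF1, 1.32-fold lower. At equal summed reads, Sugt1 (0.10) and Hsbp1 (0.23) lay above 0.

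**Figure D3:**
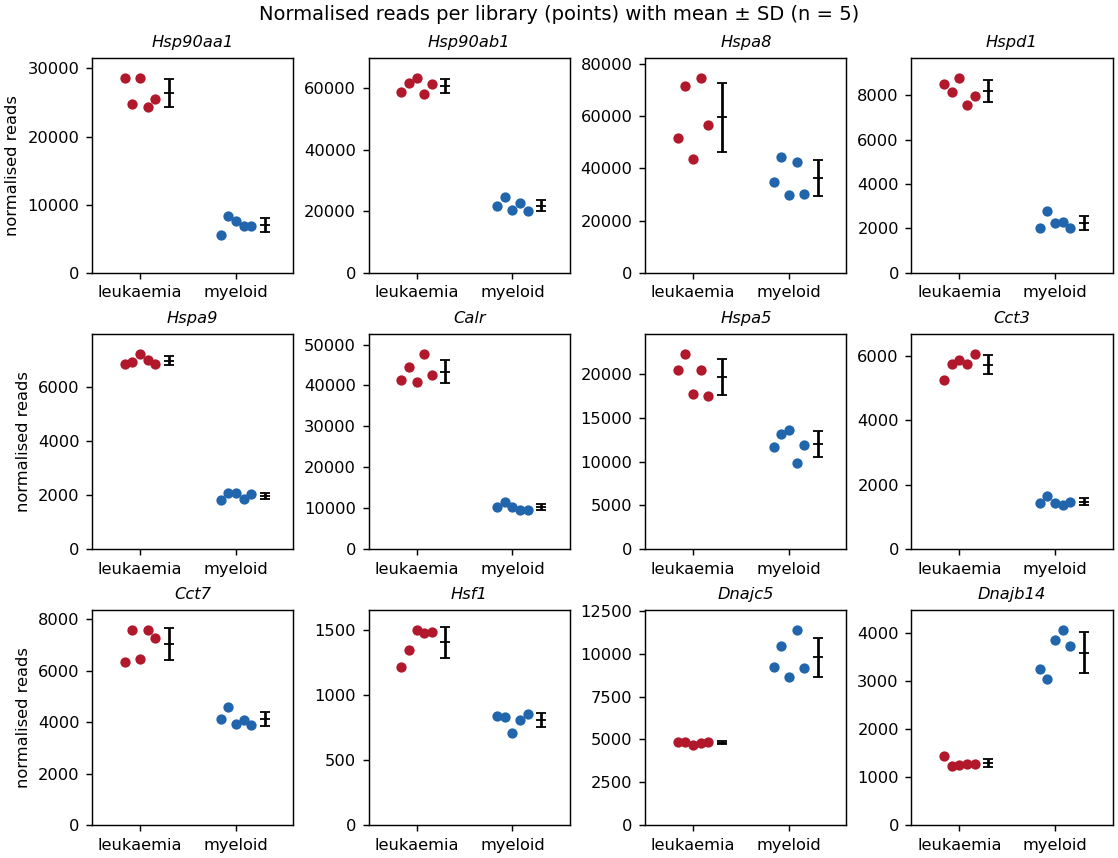
Normalised reads of 12 chaperone genes in each library (points, leukaemia left and myeloid right), with the mean and SD (n = 5) beside them. Groups are apart in each panel except Hspa8, where the leukaemia library at 43561 lies below the myeloid one at 44292.

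In the HSP70 set, 8 of 9 were higher in leukaemia, none was lower, and Hspa1b was not called (median 0.43). Hspa8, the constitutive HSC70, had 51474, 71475, 43561, 74691 and 56485 normalised reads in leukaemia, against 34849, 44292, 29732, 42542 and 30034 in myeloid cells. Leukaemia was 1.64-fold higher (log2 difference 0.70, SE 0.162, adjusted p = 0.00115), with overlapping groups and coefficients of variation of 22.2% in leukaemia and 18.9% in myeloid cells. Replicates 2 and 4 were the highest in both groups. Per exon length, Hsp90ab1 led in leukaemia with 20222 normalised reads per kb, above Calr at 15066 and Hspa8 at 13843. In myeloid cells Hspa8 led with 8438, above Hsp90ab1 at 7290. The ratio of Hsp90ab1 to Hspa8 reads was 1.06 ± 0.265 in leukaemia, against 0.612 ± 0.0681 in myeloid cells (± SD over 5 libraries, exact two-sided permutation test, p = 0.00794, adjusted p = 0.0111). Here too the genes were chosen with earlier results of these data known, so the p-value adds no support.

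Hsph1, an HSP110 exchange factor, showed the highest difference of the set. It had 1625, 1997, 1557, 2499 and 2058 normalised reads in leukaemia, against 499, 573, 482, 597 and 387 in myeloid cells. The groups were apart, 3.83-fold (log2 difference 1.30, SE 0.1, adjusted p = 4.34e-08). The related Hspa4 was 1.34-fold higher, with little spread (6440 ± 144 in leukaemia, against 4805 ± 201 in myeloid cells). Hspbp1, another exchange factor, was 2.57-fold higher, Hspa14 of the ribosome-associated complex 1.57-fold, and Bag1, an exchange factor that also binds BCL2, 1.27-fold with overlapping groups. Among low members, Hspa2, best known from the testis, had 428 ± 75.5 normalised reads in leukaemia, against 225 ± 33.4 in myeloid cells. Hspa12a, a distant relative, had 275, 270, 283, 247 and 274 in leukaemia, against 141, 214, 120, 218 and 160 in myeloid cells. It had the lowest log2 difference among those called, but not the lowest fold, at 1.58-fold higher, against 1.27-fold for Bag1. Its groups were apart (log2 difference 0.27, SE 0.0649, adjusted p = 0.00151), but it did not pass after quantile normalisation (0.10). Hspa1l lay below the filter at 154 ± 8.76 in leukaemia, against 52.5 ± 10.2 in myeloid cells.

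Hspa1a and Hspa1b, the stress-inducible HSP70 genes, were high in some myeloid libraries. Hspa1b had 230, 150, 104, 145 and 124 normalised reads in leukaemia, against 1728, 72.1, 490, 136 and 486 in myeloid cells. Myeloid replicates 1, 3 and 5 were above all leukaemia libraries, while myeloid replicate 2 was below all of them and replicate 4 within their range, and the difference did not pass (log2 difference -0.63, SE 0.321, adjusted p = 0.0742). It passed as lower after quantile normalisation (-0.74, adjusted p = 0.0354) and with the replicate number as a block (-0.63). Without myeloid replicates 2 and 4 it was -1.15 (adjusted p = 4e-04), and it also passed without replicate 2 alone (-0.86, adjusted p = 0.0128) or replicate 4 alone (-0.79, adjusted p = 0.0333). These were its lowest myeloid libraries, and leaving out both was added after seeing the data, so passing without them adds no support. Hspa1a, below the filter, had 54.1, 21.4, 48.2, 35.7 and 25.0 normalised reads in leukaemia, against 1202, 15.4, 387, 17.7 and 220 in myeloid cells. The 2 genes are near-identical copies, so reads could be split between them. Their sum was 188 ± 55.8 in leukaemia, against 951 ± 1158 in myeloid cells, where the SD exceeded the mean.

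Immediate early genes, which rise quickly during tissue handling, were also high in myeloid replicates 1, 3 and 5. The 17 genes of that list with an entry summed to 31712, 10807, 20290, 9383 and 15522 normalised reads in leukaemia, against 245950, 93147, 177391, 69870 and 170828 in myeloid cells. In both groups replicates 2 and 4 held the lowest sums. Dnajb9 (ERdj4), an ER J protein induced by the unfolded protein response, also followed this order among myeloid cells, with 956, 747, 905, 854 and 737 normalised reads in leukaemia, against 2975, 1526, 2995, 1145 and 2659 in myeloid cells. Its groups were apart (log2 difference -0.99, SE 0.186, adjusted p = 0.000223), but it did not pass at equal summed reads (-0.67, adjusted p = 0.052). By contrast, Hspa8 and Fkbp4 were highest in replicates 2 and 4 of both groups, and so was Hsph1 in the myeloid cells. The sum of the MHC class II and dendritic genes split the myeloid libraries in the same way. It was 60788, 42940 and 39205 normalised reads in myeloid replicates 1, 3 and 5, against 5715 and 5807 in replicates 2 and 4. Within that list Flt3 did not follow this split. Siglech, a gene below the filter, went the other way, with 375 and 319 in replicates 2 and 4, against 213, 193 and 221 in replicates 1, 3 and 5. The parts of handling and of the mix of cells in these values cannot be told apart and were not tested.

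**Figure D4:**
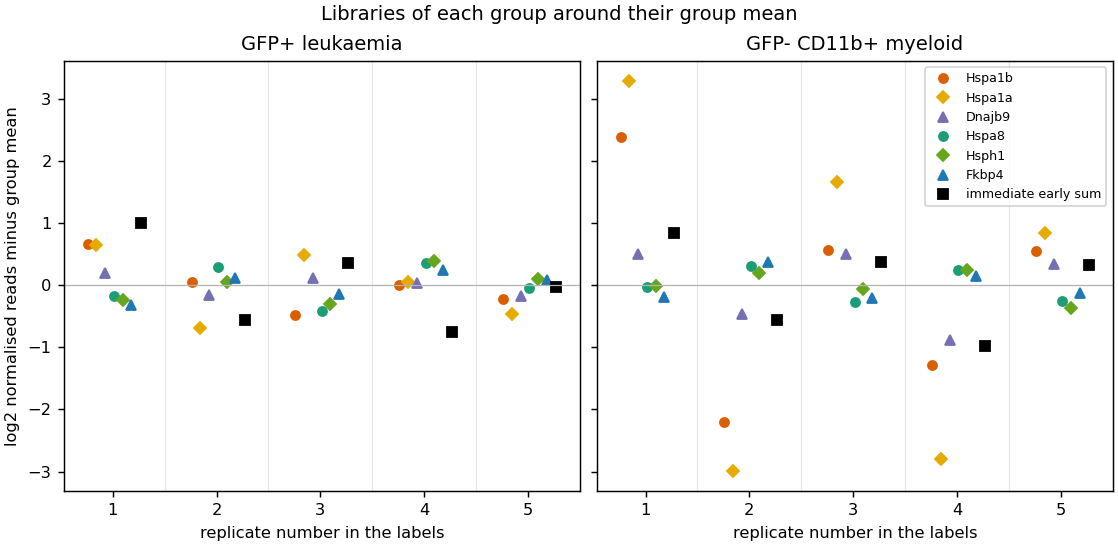
Log2 normalised reads minus the group mean for 6 chaperone genes and for the sum of 17 immediate early genes, by replicate number, leukaemia left and myeloid right. In the myeloid panel Hspa1a, Hspa1b and Dnajb9 lie low in replicates 2 and 4 with the immediate early sum, whereas Hspa8, Hsph1 and Fkbp4 lie above their mean there.

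Hsf1, the master regulator of the heat shock response, had 1212, 1345, 1500, 1472 and 1480 normalised reads in leukaemia, against 836, 826, 708, 809 and 852 in myeloid cells. Every leukaemia library was above every myeloid one, 1.74-fold (log2 difference 0.55, SE 0.0582, adjusted p = 1.03e-06). The binding motif of HSF1, the heat shock element, was searched on both strands as GAA, any 2 bases, TTC, any 2 bases and GAA, in windows that run from 250 bases before to 50 after the RefSeq start of each gene (GRCm38.p6). It was found for Hspd1, Hspe1, Hsph1 and Dnajb6, which is 5.8% of the 69 members with a window and 0.662% of all 27025 genes with one. Members without a window, among them Hspa8, Hsp90aa1 and Hsp90ab1, were not searched. Matches are shown with the fixed letters in capitals, in the orientation of the motif, to let the copies be compared. Those of Hspe1 and Hspd1 are 1 pair of overlapping sites, at chr1:55088059-55088071 and chr1:55088064-55088076. The Hsph1 match is at chr5:149636288-149636300 and the Dnajb6 match at chr5:29735852-29735864. A match describes the letters only.
Hspe1 and Hspd1, first copy: GAAggTTCtaGAA
Hspe1 and Hspd1, second copy: GAAccTTCcgGAA
Hsph1: GAActTTCcaGAA
Dnajb6: GAAtcTTCcgGAA

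Of the genes with this motif, Hspd1, Hspe1 and Hsph1 were among the members higher by at least 1 log2 unit, and Dnajb6 was lower. Dnajb6, a J protein that keeps polyglutamine chains from aggregating, averaged 3329 ± 93.2 normalised reads in leukaemia, against 4279 ± 410 in myeloid cells (log2 difference -0.31). Its direction turned to 0.16 after quantile normalisation and 0.28 at equal summed reads.

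Mitochondrial chaperones were mostly higher in leukaemia, at 7 of 9 higher and 2 lower (median 0.81). Hspd1 (HSP60), the folding chamber of the matrix, had 8510, 8155, 8800, 7547 and 7990 normalised reads in leukaemia, against 2028, 2782, 2225, 2287 and 2007 in myeloid cells. Its lid Hspe1 (HSP10) had 1157, 1533, 1388, 1348 and 1402 in leukaemia, against 463, 524, 430, 377 and 451 in myeloid cells. Both pairs of groups were apart, 3.62-fold for Hspd1 (log2 difference 1.64, SE 0.077, adjusted p = 4.19e-10) and 3.04-fold for Hspe1 (1.02, SE 0.0644, adjusted p = 6.67e-09). The ratio of Hspd1 to Hspe1 was 6.06 ± 0.812 in leukaemia, against 5.08 ± 0.692 in myeloid cells, a difference that did not pass (± SD over 5 libraries, exact two-sided permutation test, p = 0.0714, adjusted p = 0.0833). Hspd1 and Hspe1 lie head to head, and the stretch before the start of Hspe1, shown because this promoter region serves the pair, lies at chr1:55087948-55088147 of GRCm38.p6, plus strand, with the overlapping heat shock elements in capitals.
Hspe1: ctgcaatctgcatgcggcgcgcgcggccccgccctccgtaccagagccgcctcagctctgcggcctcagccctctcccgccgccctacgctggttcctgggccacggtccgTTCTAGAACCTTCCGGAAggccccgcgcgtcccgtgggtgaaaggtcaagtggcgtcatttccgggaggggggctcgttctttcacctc

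Hspa9 (mortalin), the matrix HSP70 that pulls in imported proteins, had 6855, 6938, 7238, 6991 and 6861 normalised reads in leukaemia, against 1819, 2078, 2054, 1841 and 2029 in myeloid cells, 3.55-fold higher (log2 difference 1.59, SE 0.0526, adjusted p = 2.03e-11). The coefficient of variation was 2.25% in leukaemia and 6.31% in myeloid cells. Its J protein Dnaja3 was 2.43-fold higher, and Dnajc11, linked to the organisation of the inner membrane, 2.18-fold higher. Dnajc19 (1.53-fold) and Dnajc15 (1.28-fold), J proteins of the import motor, were higher by less, and Dnajc15 did not pass after quantile normalisation (0.11) or without replicates 2 and 4 of both groups (0.14, adjusted p = 0.0576). The lower members were Dnajc28 and Dnajc4. Dnajc28 had 82.7, 66.5, 64.7, 69.6 and 77 normalised reads in leukaemia, against 174, 292, 248, 281 and 280 in myeloid cells, 3.54-fold lower with groups apart (log2 difference -0.59, SE 0.0633, adjusted p = 1.19e-06). Dnajc4 was 1.59-fold lower (314 ± 28.7 in leukaemia, against 500 ± 51.6 in myeloid cells) and did not pass at equal summed reads (-0.02). Outside the name rule, 10 of 11 tested genes of mitochondrial folding and proteolysis were higher and 1 lower (median 0.66). The matrix HSP90 gene Trap1 was 3.46-fold and the protease gene Lonp1 2.65-fold higher, and the inner membrane protease gene Yme1l1 was 1.56-fold lower, with a value of 0.01 at equal summed reads.

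TRiC is built from related subunits in 2 stacked rings. All 7 subunit genes with an entry were higher in leukaemia with groups apart, from 1.71-fold to 3.90-fold (median log2 difference 1.07). Cct3 had 5243, 5733, 5873, 5733 and 6068 normalised reads in leukaemia, against 1433, 1651, 1437, 1375 and 1454 in myeloid cells (log2 difference 1.65, SE 0.0571, adjusted p = 2.96e-11). Cct7 showed the lowest difference, with 6324, 7589, 6458, 7596 and 7275 in leukaemia, against 4114, 4594, 3920, 4088 and 3906 in myeloid cells (0.70, SE 0.0694, adjusted p = 5.59e-07). Between them lay Tcp1 (2.71-fold), Cct5 (2.28-fold), Cct2 (2.23-fold), Cct8 and Cct4 (2.02-fold each). Cct5 had the highest mean in leukaemia (9841 ± 635 in leukaemia, against 4320 ± 261 in myeloid cells), with 9016, 10682, 9455, 9955 and 10094 in leukaemia libraries, against 4296, 4697, 4210, 4409 and 3988 in myeloid ones.

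Each TRiC subunit takes an equal share of the ring, but their transcripts were not equally abundant. Per kb of exon, leukaemia cells ranged from 900 normalised reads for Cct3 to 3727 for Cct2, a 4.14-fold spread, and myeloid cells from 231 for Cct3 to 1668 for Cct2, a 7.22-fold spread. The same genes marked both ends in both groups. The ratio of Cct3 to Cct7 was 0.817 ± 0.0645 in leukaemia, against 0.357 ± 0.0144 in myeloid cells (± SD over 5 libraries, exact two-sided permutation test, p = 0.00794, adjusted p = 0.0111). These are the genes with the highest and the lowest difference of the set in these same data, so the p-value adds no support. Exon lengths were those of GENCODE M21 and include exons that these cells may not use, so levels of different genes are approximate.

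**Figure D5:**
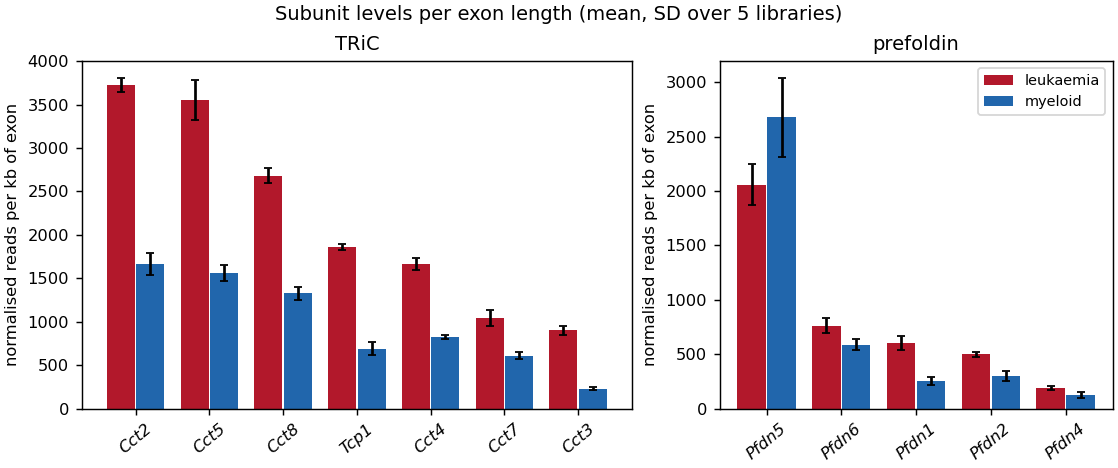
Normalised reads per kb of exon for the TRiC genes and the 5 prefoldin genes named Pfdn (bars, mean with SD over 5 libraries, leukaemia left of myeloid in each pair). Each TRiC bar is taller in leukaemia, and of the 5 Pfdn genes shown Pfdn5 is shorter in leukaemia, at 2059 against 2681 in myeloid cells.

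Prefoldin, which delivers unfolded actin and tubulin to TRiC, had a lower median. Of its 5 genes named Pfdn, 4 were higher and 1 lower (median 0.32, and 0.21 without replicates 2 and 4 of both groups). Pfdn1 had 626, 679, 784, 609 and 642 normalised reads in leukaemia, against 282, 306, 332, 223 and 253 in myeloid cells, 2.39-fold higher with groups apart (log2 difference 0.66, SE 0.0626, adjusted p = 3.71e-07). Pfdn2 (1.68-fold), Pfdn4 (1.54-fold) and Pfdn6 (1.29-fold, with overlapping groups) were also higher. Pfdn5, also known as a partner of MYC, was the most abundant and the lower one, with 2559, 3179, 2655, 2916 and 3044 in leukaemia, against 3831, 4415, 3311, 3961 and 3167 in myeloid cells. Its groups overlapped by 1 library on each side (log2 difference -0.32, SE 0.0848, adjusted p = 0.00275), and it turned to 0.09 after quantile normalisation and 0.26 at equal summed reads. Among 8 partners of prefoldin and TRiC outside the name rule, 4 were higher and 4 lower (median -0.09). Pdrg1 of the prefoldin-like complex (2.97-fold) and the tubulin cofactor gene Tbcd (2.44-fold) were higher. The tubulin cofactor gene Tbce (1.92-fold) and Vbp1, which encodes another prefoldin subunit (1.46-fold), were lower, and Vbp1 lay at 0.11 at equal summed reads.

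The ER holds lectins, isomerases, J proteins and its own HSP70 and HSP90. Among 17 tested genes of this set, 12 were higher and 5 lower (median 0.44), and the lower ones were J proteins and the HSP70 relative Hspa13. Calr, the calcium-binding lectin that helps to fold glycoproteins, had 41258, 44448, 40846, 47760 and 42638 normalised reads in leukaemia, against 10367, 11562, 10341, 9579 and 9627 in myeloid cells. This was the largest log2 difference of any member, 4.21-fold on the means (2.02, SE 0.0744, adjusted p = 5.2e-11), and its groups were far apart. Its membrane-bound relative Canx was 1.97-fold higher (16399 ± 454 in leukaemia, against 8338 ± 538 in myeloid cells), and the ratio of Calr to Canx was 2.65 ± 0.188 in leukaemia, against 1.24 ± 0.116 in myeloid cells (± SD over 5 libraries, exact two-sided permutation test, p = 0.00794, adjusted p = 0.0111). Since Calr had the largest log2 difference in these same data, the p-value adds no support. The disulphide isomerases Pdia4 (2.91-fold), Pdia6 (2.42-fold) and Pdia3, the partner of Calr and Canx (1.46-fold), were higher too.

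Hspa5 (BiP), the ER HSP70, had 20454, 22358, 17684, 20516 and 17546 normalised reads in leukaemia, against 11701, 13174, 13587, 9834 and 11874 in myeloid cells, 1.64-fold higher (log2 difference 0.69, SE 0.0972, adjusted p = 1.67e-05). Hsp90b1 (GRP94), the ER HSP90, was 1.62-fold higher (20826 ± 1798 in leukaemia, against 12886 ± 920 in myeloid cells). The ratio of Hspa5 to Hspa8 was 0.340 ± 0.0581 in leukaemia, against 0.343 ± 0.0871 in myeloid cells and did not pass (± SD over 5 libraries, exact two-sided permutation test, p = 0.984). Dnajc10 (ERdj5), a J protein with reductase activity, was 1.88-fold and Dnajc1 1.54-fold higher. Dnajc25 (1.62-fold), Fkbp2 (1.35-fold) and Dnajc18 (1.53-fold) were higher at lower levels, and neither Dnajc25 (0.13) nor Dnajc18 (0.09) passed after quantile normalisation. Fkbp11, a secretory pathway isomerase gene abundant in plasma cells, lay below the filter at 150 ± 24.9 in leukaemia, against 15.3 ± 8.68 in myeloid cells. The 7 B and plasma cell markers with an entry summed to 661 to 719 normalised reads in leukaemia libraries, against 1399 to 3084 in myeloid ones. Of these, 5 were lower in leukaemia with groups apart, among them Jchain (11.5 ± 12.9 in leukaemia, against 1052 ± 287 in myeloid cells). Sdc1 was higher with groups apart (163 ± 33.1 in leukaemia, against 40.3 ± 19.8 in myeloid cells), and Cd79b had 464 ± 41.6 in leukaemia, against 312 ± 140 in myeloid cells, with overlapping groups. The part of such cells in the Fkbp11 values was not tested.

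The lower ER members were led by Dnajb14, a J protein of the ER membrane that works with cytosolic HSC70. It had 1431, 1230, 1258, 1279 and 1264 normalised reads in leukaemia, against 3242, 3050, 3851, 4066 and 3720 in myeloid cells, 2.77-fold lower with groups apart (log2 difference -1.18, SE 0.0721, adjusted p = 4.85e-09). It was the 1 member lower by at least 1 log2 unit. Dnajc14 was 1.92-fold lower (2601 ± 135 in leukaemia, against 4983 ± 431 in myeloid cells) and Dnajb9 2.69-fold lower. Dnajb12, the paralogue of Dnajb14, was 1.23-fold lower (log2 difference -0.21) and Hspa13 1.25-fold lower (-0.24), both with overlapping groups. Without replicates 2 and 4 of both groups neither passed (adjusted p = 0.0696 for Dnajb12 and 0.0557 for Hspa13). At equal summed reads these 2 passed as higher, at 0.35 for Dnajb12 and 0.33 for Hspa13. Fkbp9 lay below the filter at 3.30 ± 2.63 in leukaemia, against 36.6 ± 13.5 in myeloid cells, and Fkbp7 at 81.1 ± 14.2 in leukaemia, against 24.3 ± 16.2 in myeloid cells.

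Genes outside the name rule were counted for ER folding and for the unfolded protein and integrated stress responses. Of 24 tested ER folding genes outside the name rule, 20 were higher and 4 lower (median 0.59). The glucosidase gene Mogs was 2.95-fold and Sdf2l1, a partner of BiP, 2.98-fold higher, while the oxidoreductase genes Tmx3 (2.13-fold) and Ero1l (1.56-fold) were lower, and Ero1l lay at 0.02 after quantile normalisation and 0.03 at equal summed reads. In the list of unfolded protein and integrated stress response genes, 3 of 15 tested were higher and 12 lower (median -0.33). Atf6, Ern1 and Atf4 were on this list but had no entry, so it is not a survey of the ER stress sensors. Eif2ak3, the gene of the ER stress kinase PERK, averaged 1253 ± 95.3 normalised reads in leukaemia, against 3465 ± 489 in myeloid cells (2.77-fold lower), and Ppp1r15b, a phosphatase subunit that reverses its action, 6786 ± 286 in leukaemia, against 16069 ± 1455 in myeloid cells (2.37-fold lower). Eif2ak4, the gene of the amino acid sensor GCN2 (2.74-fold), and the asparagine synthetase gene Asns (2.27-fold) were higher. The median of this list was -0.04 after quantile normalisation and 0.21 at equal summed reads, where 9 were higher and 4 lower. Relative to all tested genes it lay at -0.17, at -0.13 after quantile normalisation and at -0.22 at equal summed reads.

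The ER stress element, bound by ATF6 with NF-Y, was searched on both strands of the same windows as CCAAT, any 9 bases and CCACG. It was found for Calr, Canx, Hsp90b1, Hspa5 and Pdia6, which is 7.25% of the 69 members with a window and 0.137% of all genes with one. All 5 were called higher in leukaemia, from 1.62-fold to 4.21-fold, and 12 of 17 tested ER members were higher in all. The copies are given in the orientation of the motif, with its fixed letters in capitals. In the order listed they lie at chr8:84847075-84847093, chr11:50325800-50325818, chr10:86705638-86705656, chr10:86705533-86705551, chr2:34772025-34772043 and chr12:17266491-17266509.
Calr: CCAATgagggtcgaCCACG
Canx: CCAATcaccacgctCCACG
Hsp90b1, first copy: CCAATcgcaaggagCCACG
Hsp90b1, second copy: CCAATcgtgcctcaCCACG
Hspa5: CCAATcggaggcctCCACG
Pdia6: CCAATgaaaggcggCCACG

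For Calr, Hspa5 and Hsp90b1, the ER members most abundant per exon length but for Pdia3, the 250 bases before the RefSeq start are shown with matches in capitals. They lie at chr8:84846932-84847181 (minus strand) for Calr, chr2:34771840-34772089 (plus strand) for Hspa5 and chr10:86705445-86705694 (minus strand) for Hsp90b1. In the Calr stretch the first capitals mark an E-box, CACGTG, the core bound by MYC and other factors, which was present in 11.6% of members and 8.09% of all genes with a window.
Calr: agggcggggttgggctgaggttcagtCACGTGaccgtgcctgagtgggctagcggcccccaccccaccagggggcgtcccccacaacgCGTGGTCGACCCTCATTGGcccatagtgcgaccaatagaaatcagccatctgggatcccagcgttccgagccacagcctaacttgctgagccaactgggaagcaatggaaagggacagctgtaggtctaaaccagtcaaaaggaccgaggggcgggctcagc
Hspa5: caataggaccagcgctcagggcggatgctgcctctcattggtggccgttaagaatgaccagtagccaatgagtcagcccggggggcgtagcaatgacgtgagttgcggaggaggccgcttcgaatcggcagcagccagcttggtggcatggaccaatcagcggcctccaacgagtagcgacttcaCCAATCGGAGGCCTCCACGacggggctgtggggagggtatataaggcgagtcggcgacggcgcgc
Hsp90b1: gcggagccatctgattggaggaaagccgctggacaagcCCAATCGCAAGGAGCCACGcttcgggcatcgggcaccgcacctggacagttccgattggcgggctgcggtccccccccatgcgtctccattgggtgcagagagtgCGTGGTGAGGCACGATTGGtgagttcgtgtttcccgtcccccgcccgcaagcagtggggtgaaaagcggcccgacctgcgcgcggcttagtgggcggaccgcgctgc

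With the deposited values, J proteins of the cytosol and nucleus were split evenly, 6 of 12 higher and 6 lower (median 0.10). After quantile normalisation 8 were higher and 3 lower, and at equal summed reads 9 were higher and 1 lower. Their median stood above that of all tested genes by 0.26 as deposited, 0.15 after quantile normalisation and 0.30 at equal summed reads. Dnajc27, a small GTPase with a J domain, had 584, 540, 727, 550 and 655 normalised reads in leukaemia, against 283, 83.9, 132, 127 and 173 in myeloid cells, 3.82-fold higher with groups apart (log2 difference 0.92, SE 0.0984, adjusted p = 1.22e-06). Dnajc2 of the ribosome-associated complex was 2.03-fold higher (2336 ± 238 in leukaemia, against 1152 ± 66.3 in myeloid cells). Dnajc9, a histone chaperone of dividing cells, was 1.76-fold higher, with 2663, 3131, 2568, 3454 and 2892 in leukaemia, against 1211, 2308, 1427, 1998 and 1421 in myeloid cells. Its highest 2 libraries were replicates 2 and 4 in both groups. Dnajb4 (1.81-fold), Dnajc24 of diphthamide synthesis (1.93-fold) and the endosomal Dnajc13 (1.34-fold) completed the higher members.

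The lower J proteins were led by Dnajc5 (cysteine string protein), a chaperone of vesicle release. It had 4867, 4827, 4655, 4782 and 4849 normalised reads in leukaemia, against 9258, 10436, 8665, 11417 and 9193 in myeloid cells, 2.04-fold lower with groups apart (log2 difference -0.95, SE 0.0726, adjusted p = 4.39e-08). It was also the set's highest mean in myeloid cells, and its leukaemia libraries hardly varied (coefficient of variation 1.77%). Dnajc13 had the highest mean in leukaemia, with 7114, 5851, 6754, 6509 and 6286 in those libraries, against 4126, 4440, 5048, 5623 and 4974 in myeloid cells. Dnajb1 (HSP40), the main J partner of inducible HSP70, was 1.22-fold lower (1859 ± 201 in leukaemia, against 2273 ± 120 in myeloid cells, log2 difference -0.24), and the splicing-related Dnajc8 1.18-fold lower (-0.21). Both turned round with scaling, Dnajb1 to 0.01 and Dnajc8 to 0.26 after quantile normalisation, and Dnajb1 to 0.34 and Dnajc8 to 0.40 at equal summed reads. Dnajb2 (142 ± 25.2 in leukaemia, against 210 ± 65.3 in myeloid cells, log2 difference -0.19, adjusted p = 0.0308) lost its call when any 1 of 4 libraries was left out, leukaemia replicates 1 and 2 and myeloid replicates 2 and 4 (adjusted p = 0.0588 to 0.073), and lay at 0.09 at equal summed reads. Dnajb13, a sperm flagellum gene in its known role, was 1.84-fold lower, but did not pass at equal summed reads (-0.24). Below the filter, Dnajc6 (auxilin, which uncoats clathrin vesicles) had 3.73 ± 4.29 in leukaemia, against 87.5 ± 32.5 in myeloid cells, and Dnajc12 had 145 ± 26.1 in leukaemia, against 76.7 ± 18.3 in myeloid cells.

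FKBPs are prolyl isomerases named for the drug FK506, and outside the ER 3 of 6 were higher and 3 lower (median 0.34). Fkbp4 (FKBP52), an HSP90 cochaperone of steroid receptors, had 4597, 6196, 5199, 6767 and 6076 normalised reads in leukaemia, against 1483, 2177, 1469, 1875 and 1538 in myeloid cells. It was 3.38-fold higher with groups apart (log2 difference 1.49, SE 0.109, adjusted p = 2.74e-08), and replicates 2 and 4 were highest in both. The nuclear Fkbp3 (2.48-fold) and Fkbp1a (FKBP12, 2.31-fold), the cell's main FK506 target, were also higher. Fkbp8, an anchor of BCL2 at mitochondria, had 4393, 5371, 5053, 5235 and 5219 in leukaemia, against 5423, 6708, 5278, 6008 and 5518 in myeloid cells. Its small difference (log2 difference -0.18, adjusted p = 0.0369) did not pass when any 1 of 4 libraries was left out, leukaemia replicates 1 and 3 and myeloid replicates 2 and 4 (adjusted p = 0.0596 to 0.0988) and passed as higher after quantile normalisation (0.38) and at equal summed reads (0.44). The ratio of Fkbp4 to Fkbp8 was 1.14 ± 0.106 in leukaemia, against 0.293 ± 0.0232 in myeloid cells (± SD over 5 libraries, exact two-sided permutation test, p = 0.00794, adjusted p = 0.0111). Fkbp4 had the highest difference of the set and Fkbp8 was called lower in these same data, so the p-value adds no support.

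Fkbp15, linked to endosomes and actin, had the lowest log2 difference of the tested FKBPs outside the ER, with 3442, 2915, 3037, 3010 and 2987 normalised reads in leukaemia, against 5164, 4767, 5329, 5283 and 5004 in myeloid cells (1.66-fold lower, log2 difference -0.64, SE 0.0572, adjusted p = 1.85e-07). The groups were apart, but the difference did not pass at equal summed reads (-0.09). Fkbpl was 1.98-fold lower and did not pass under that scaling either (-0.36). Below the filter, Fkbp1b had 74.4 ± 26.3 in leukaemia, against 177 ± 32.5 in myeloid cells. Fkbp6, a germ cell gene in its known role, had 119 reads over the leukaemia libraries and 0 in the myeloid ones, at least 25.4-fold higher against a floor of 3 reads over the group. Of 8 cyclophilins, the other family of prolyl isomerases, 6 were higher and 2 lower (median 0.57). Ppia, the abundant cytosolic form, was 2.51-fold and the spliceosomal Ppie 3.23-fold higher, while Ppil4 (1.49-fold) and Nktr (1.30-fold) were lower and lay at 0.06 and 0.26 at equal summed reads, and Nktr at 0.20 after quantile normalisation.

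Small heat shock proteins, which hold unfolded chains without using ATP, had low counts where they had an entry. Hspb11, an intraflagellar transport gene in its known role, had 4.64, 9.6, 8.63, 0 and 8.35 normalised reads in leukaemia, against 51.3, 50.8, 47.6, 61.8 and 73.4 in myeloid cells, with groups apart. Hspb9 had 4.64, 4.43, 9.34, 3.4 and 2.78 in leukaemia, against 21, 24.8, 2.44, 15.1 and 20.4 in myeloid cells, with overlapping groups. Both lay below the filter.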

How the data were processed

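Bulk RNA-seq libraries of 5 GFP+ leukaemia and 5 GFP- CD11b+ myeloid samples were grouped by title. The authors deposited 1 table of log2 values after variance stabilisation. HISAT2 (2.0.4 and 2.2.1) and DESeq2 are named in the submitters' processing notes, while overlapping genes cannot be told apart, since build, annotation, read counter and strand setting are not given in the sources used here. The stabilising function was inverted from its lowest value (8.1823, 0 reads) under an assumed parametric form. Values up to 300 reads were then whole within 0.1 read for 100.0% in each library, and gave normalised reads and size factors.

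Genes with a mean over 1 unit above the lowest value (145 normalised reads) were fitted with limma (3.58.1, R 4.3.3) with a trended prior variance, two-sided, over all 8079 genes, leukaemia minus myeloid. Log2 differences understate changes of low genes, and folds are ratios of mean normalised reads. Ratios of 2 genes were compared with exact permutation tests. Alternatives were no or stricter filter (2 units), quantile normalisation, voom under 2 scalings, no trend, a replicate block, each library left out, and 55450 annotated genes counted as tests. Leaving out replicates 2 and 4 was added after seeing the data. Members, role groups, lists and ratios were chosen with earlier results of these data known. In each role group the highest, the lowest and the most abundant member were given by library, and pathway lists are named by their extremes, up to 2 called genes at each end. Promoter sequences are from RefSeq (GRCm38.p6), and 69 of 82 members matched by symbol. Of the 10 columns of values 0 were left out.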

Additional observations from a re-analysis of the deposited data

Results flagged for a closer look

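Of 163 sets of 5 libraries, 7 held a library far from the other 4, with a gap to its neighbour above 0.71 of the whole range (Dixon's limit), and chance flags about 1 in 20. Normalised reads were 7508 for Cct4 in leukaemia replicate 4 (others 6757 to 6914) and 765 for Pfdn6 in leukaemia replicate 1 (others 920 to 961). For Canx they were 15603 in leukaemia replicate 5 (others 16461 to 16697) and 7418 in myeloid replicate 1 (others 8356 to 8746). Leukaemia replicate 1 was highest for Dnajb14 at 1431 (others 1230 to 1279) and for Fkbp15 at 3442 (others 2915 to 3037). Hsf1 was lowest in myeloid replicate 3 at 708 (others 809 to 852). Each of these genes kept its call without that library.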

How the results depend on the processing

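The number of members called higher stayed between 51 and 59 of the tested members under every alternative except the stricter filter (40 of 53 tested). Members called lower numbered 4 at equal summed reads. Of 71 tested members, those higher by at least 1 log2 unit numbered 26 after quantile normalisation, 25 with voom and the authors' size factors, and 51 at equal summed reads. Of all 8079 tested genes, 1049, 1839 and 3557 were higher by as much under these settings, in the same order. Members lower by at least 1 numbered 0 after quantile normalisation and 4 with voom and the authors' size factors, against 1074 and 2012 of all tested genes. They numbered 3 without replicates 2 and 4 of both groups (all tested genes 1390) or of the myeloid group alone (1389). With single libraries left out they numbered from 1 to 2, against 1415 to 1485 of all tested genes. The members' median was 0.42 with no filter, 0.69 with the stricter filter, 0.64 after quantile normalisation, 0.71 and 1.34 with voom under the authors' size factors and equal summed reads, and 0.49 to 0.56 with single libraries left out. Genes called higher were 2415 with the stricter filter, where fewer genes were tested, and genes called lower 2232 at equal summed reads. Genes at least 1 log2 unit higher were 1839 and 3557 with voom under the 2 scalings.

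The median of the cytosolic and nuclear J proteins was -0.21 with the stricter filter. At equal summed reads, that of the prefoldin and TRiC partners was 0.56 and that of the unfolded protein and integrated stress response list 0.21. Directions that turned round after quantile normalisation were those of Dnajc7 (0.07), Dnajc8 (0.26), Dnajb1 (0.01), Dnajb6 (0.16), Pfdn5 (0.09), Fkbp8 (0.38), Ero1l (0.02) and Nktr (0.20). At equal summed reads they were those of Dnajc7 (0.20), Dnajb2 (0.09), Dnajc8 (0.40), Dnajb1 (0.34), Dnajb6 (0.28), Pfdn5 (0.26), Dnajb12 (0.35), Hspa13 (0.33), Fkbp8 (0.44), Sugt1 (0.10), Hsbp1 (0.23), Vbp1 (0.11), Yme1l1 (0.01), Ero1l (0.03), Ppil4 (0.06) and Nktr (0.26). The cause was not tested.

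With the replicate number as a block, 52 members were called higher and 19 lower, as Hspa1b was then called (-0.63, adjusted p = 0.0312). Same-numbered libraries had correlated deviations of 0.13, 0.232, 0.316, 0.29 and -0.0216 for replicates 1 to 5, and differently numbered ones reached 0.348. Pairing required a positive correlation for every number, which replicate 5 missed, so the numbers were not taken to pair the libraries. A value near 0 for 1 number does not exclude pairing. The count of annotated genes as tests removed 4 calls, of Dnajb2, Dnajb12, Hspa13 and Fkbp8. With no filter, 57 of 82 entries were called higher and 23 lower, and Hspa1a (-0.71, adjusted p = 0.0578) and Hspa1b were not.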
